A study of Rattus norvegicus with 4 samples.

Results

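Genes of the CREB, CaMK, PKA, PKC, MAPK and AKT signalling routes were read out of hippocampal transcriptome chips of running rats. The list held 46 genes, chosen by name: transcription factors, kinases with their regulatory subunits, phosphatases and the membrane-proximal proteins upstream of them. Of these, 41 had a probe that could be named, among 8893 named genes on the chip, and 39 gave a signal well above background on all 4 chips in both dyes, as did 5925 genes in all. These 39 are called detected below. No named probe was found for Prkaca, Prkar2b, Prkca, Mapk8 and Hras.

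The rats were male Wistar rats, 10 weeks old at the start. Sedentary rats (n = 10) were kept in standard cages, WR rats (n = 8) had free access to a running wheel with no load, and RWR rats (n = 8) to a wheel whose load was 4.5 g in the first week and rose to 30% of body weight within 4 weeks. All rats were housed singly, and none carried a genetic change or drug treatment. RNA of replicates was pooled within a group, so each group was 1 pool. By the RNA amounts in the paper's methods, a pool held fewer replicates than its group had rats. How many rats a replicate stands for is not stated. Each running pool was hybridized against the sedentary pool on 2 chips with the dyes Cy3 and Cy5 swapped. Both chips of a pair thus repeat the measurement of the same RNA, and no test between conditions could be made. The spread between rats is unknown.

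In hippocampal neurons, calcium entering through synaptic receptors binds calmodulin, which switches on the CaM kinases and the phosphatase calcineurin. Cyclic AMP switches on PKA, growth factor receptors act through Src family kinases, phospholipase C, the MAPK cascade and the PI3K, AKT and mTOR route, and several of these routes end in phosphorylation of CREB, a transcription factor needed for long-lasting memory. These proteins are regulated mainly by phosphorylation, which chips do not measure.

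Transcript levels of this network lay close to those of the sedentary pool in both running modes. The cutoffs of the study were read as a ratio over 1.5 or under 0.75 in both dye orientations. Each ratio also needed a deposited error-model p-value under 0.01. By this reading 0 of 41 members were called in WR and 0 in RWR, where 0.0675% of all named genes were called in each comparison. The paper reports far more changed genes in both comparisons, so this reading was stricter than its own selection. On the brightest probe of each member, the lowest p-value on any chip was 0.0166, that of Ppp1r1b on the chip with WR in Cy5. The median log2 ratio of the detected members was 0.03 in WR and 0.01 in RWR, against 0.00 and -0.00 over all detected genes. The detected members lay between -0.13 and 0.22 in WR and between -0.17 and 0.24 in RWR, and 0 of 39 passed 1.2-fold in either comparison, where 1.67% and 1.57% of detected genes did. Protein kinase C delta (Prkcd) and, at a low signal, Akt2 stood apart when both running modes were compared. After Prkcd, Prkce and Pdpk1 had the highest values of the detected members in RWR, though not on all Prkce probes. Both were above 0 in WR as well, but so were other members in both comparisons, such as Camk2b, Camk4 and Ppp3ca.

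A single chip of this design says little about running. Turned to running over sedentary, the chips of the WR pair correlated at r = -0.76 over 41008 probes and those of the RWR pair at r = -0.69 over 41007, while chips with the running pool in the same dye correlated at 0.71 and 0.70. Both chips of a pair lay on the same side of 0 for 30.0% of detected genes in WR and 32.8% in RWR, and for 15 and 14 of the 39 detected members. At the other genes the dye term was larger than the running term. Over the 39 detected members the correlation was -0.61 in the WR pair and -0.25 in the RWR pair. The dye term cancels in the mean of a pair, which is the value given here on the log2 scale. It also cancels when RWR is set against WR within a dye orientation, which assumes that the same sedentary pool was on all chips. The error given is a technical SD, taken from how far the dye term differed between both pairs at detected genes of like signal. Over all detected genes this SD was 0.07 for a pair mean and 0.10 for the difference between running modes. It ranged from 0.15 in the dimmest of 10 bins of signal to 0.03 in the brightest for a pair mean.

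**Figure D1:**
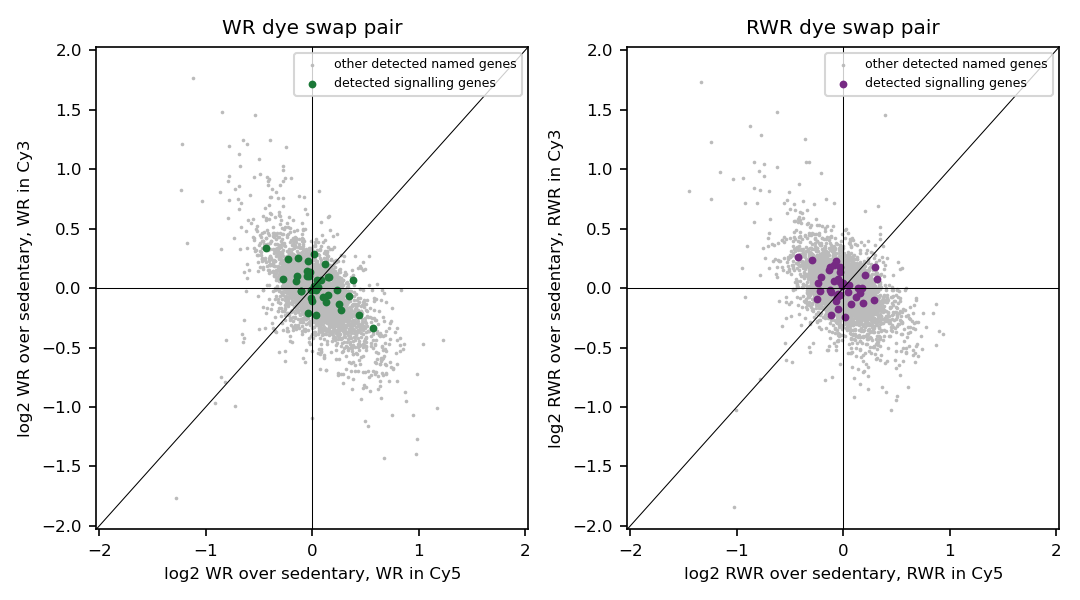
Log2 ratio of running over sedentary on the chip with the running pool in Cy5 (horizontal axis) and in Cy3 (vertical axis), for WR on the left and RWR on the right. Coloured points are the 39 detected signalling genes, grey points the other detected named genes, and most points spread across the diagonal, with r = -0.61 in WR and -0.25 in RWR over the signalling genes.

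With all 41 members counted, 1 passed 1.2-fold in WR and 2 in RWR, against 15.5% and 16.2% of all named genes. They were Camk2d in both and Prkar2a in RWR, and neither was detected. Camk2d, the delta chain of CaM kinase II, was not well above background in any dye of any chip, so no fold is given. Prkar2a, a regulatory subunit of PKA, was well above background in 5 of 8 measurements. Its log2 ratios were 0.64 and -0.68 on the WR chips and 0.46 and -1.15 on the RWR chips, opposite in sign with the dye in both pairs.

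Counted against the technical spread instead, 9 of 39 detected members lay past 3 technical SDs in WR, where 8.88% of detected genes did, 8 of them above 0. In RWR 6 members did, 4 above 0, against 11.1% of detected genes. This rule was chosen after the values had been seen, and it speaks of the chips and not of the spread between rats. The members past it in WR were Camk2b, Camk4, Fyn, Mapk14, Pdpk1, Ppp3ca, Ppp3r1 and Prkce, higher than in the sedentary pool, and Prkcd, lower. In RWR they were Pdpk1, Ppp3ca, Prkcd and Prkce, higher, and Akt1 and Camkk1, lower. Both comparisons were made against a sedentary pool, and if it was the same pool on all chips, a deviation of that pool moves both.

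**Figure D2:**
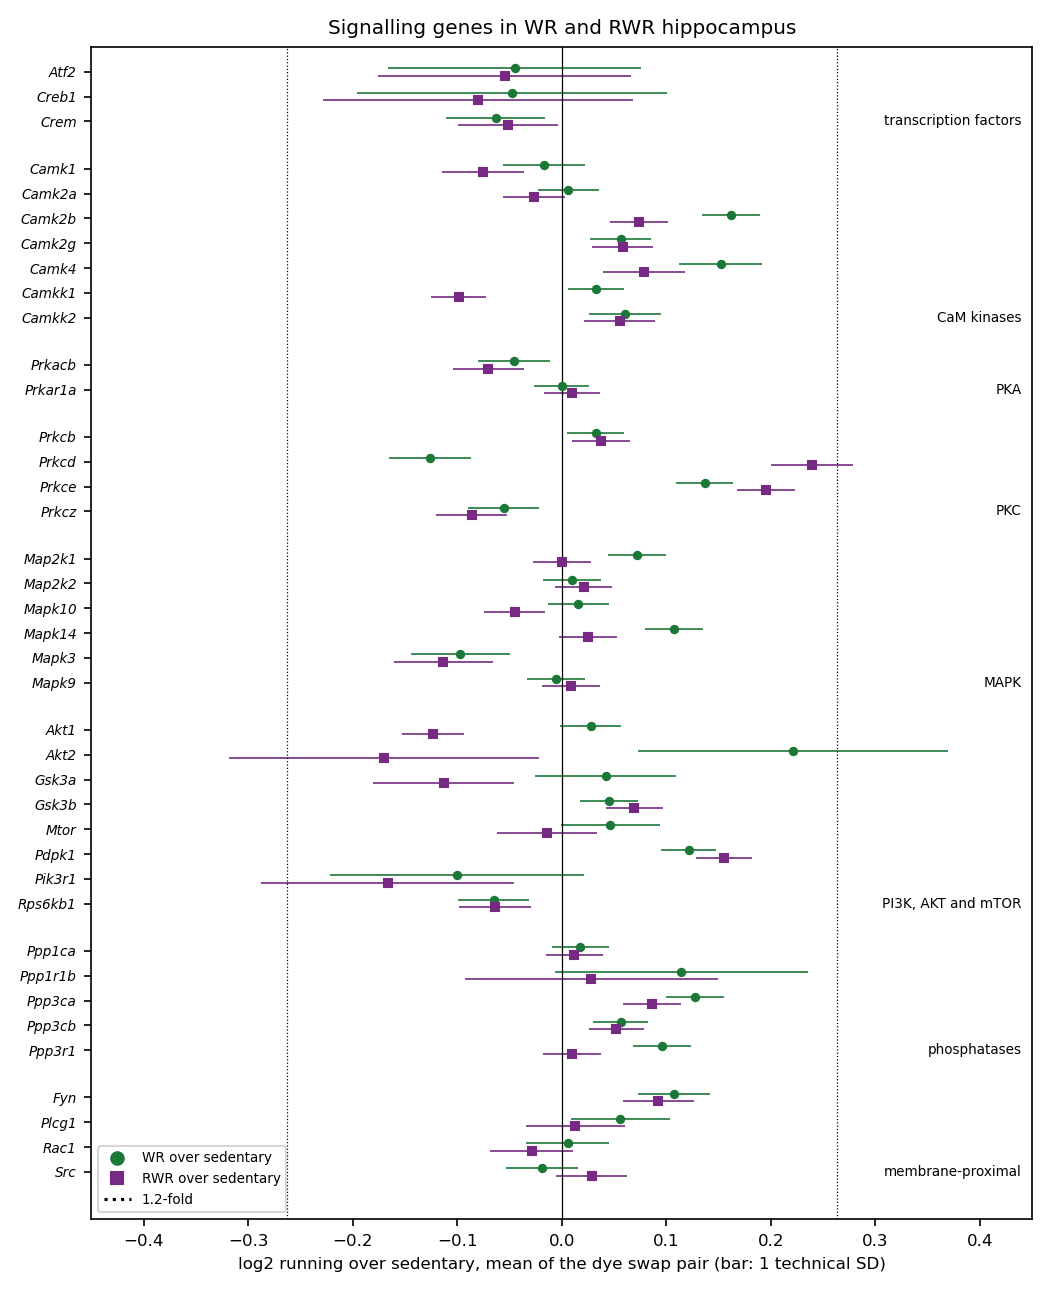
Mean log2 ratio of running over sedentary for the 39 detected signalling genes, grouped by family, with WR as circles and RWR as squares. Bars are 1 technical SD of a pair mean at like signal, dotted lines mark 1.2-fold, and all points lie within them.

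Among the PKC enzymes, which are activated by diacylglycerol and in part by calcium, Prkcd was the member with opposite values in the running modes. On its probe A_44_P451071 the log2 ratio was -0.04 with WR in Cy5, -0.21 with WR in Cy3, 0.30 with RWR in Cy5 and 0.18 with RWR in Cy3. Both WR chips were thus below 0 and both RWR chips above. Such opposite sides, in either direction, were met by 4.59% of all detected genes and 5.13% of detected members. The pair means were -0.13 in WR (0.92-fold) and 0.24 in RWR (1.18-fold), with a technical SD of 0.04.

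Prkcd in the RWR pool was 1.29-fold that in the WR pool, a log2 difference of 0.37, with 0.34 in the Cy5 orientation and 0.39 in the Cy3 orientation. This was 6.56 technical SDs of the difference at like signal, and 1.01% of detected genes differed at least as much. The probe was printed at 10 spots per chip, which repeat the measurement on the same chip. The spots ranged from -0.12 to -0.00 and from -0.26 to -0.15 on the WR chips, and from 0.27 to 0.33 and from 0.10 to 0.22 on the RWR chips. No spot of a WR chip reached the lowest spot of an RWR chip. How often other repeated probes were separated in this way was not counted. The deposited p-values of the single chips were 0.875, 0.307, 0.141 and 0.366.

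**Figure D3:**
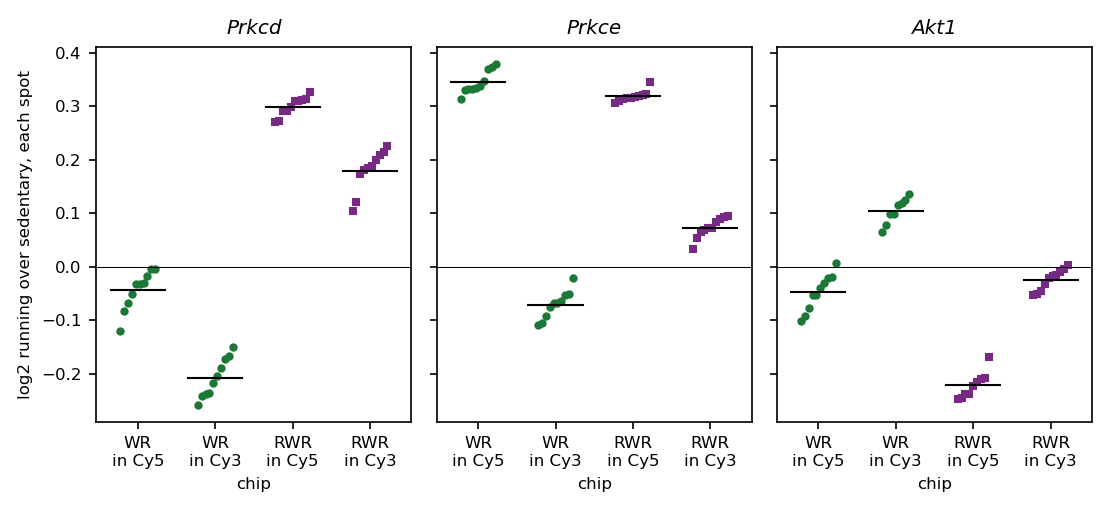
Log2 ratio of running over sedentary at each spot of the repeated probes of Prkcd, Prkce and Akt1, on the chips with WR in Cy5, WR in Cy3, RWR in Cy5 and RWR in Cy3, with a bar at the chip's mean. All 10 Prkcd spots lay below 0 on each WR chip and above 0 on each RWR chip, while the Prkce and Akt1 spots moved up and down with the dye.

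Prkcd is known to be abundant in thalamus, which like the choroid plexus lies next to the hippocampus, so markers of these tissues were read beside it. Transthyretin (Ttr), made in quantity by the choroid plexus, moved the same way, at -0.86 in WR and at 0.12 in RWR, a log2 difference of 0.98. Of the 4 choroid plexus markers, Kl and Kcne2 were not well above background in any measurement, and the dim Folr1 was at -0.21 and 0.06. Folr1 differed in sign between the dye orientations in RWR minus WR, with -0.08 in Cy5 and 0.62 in Cy3. Of the 2 thalamic markers listed, Tcf7l2 had no named probe. The dim Prkch, itself a PKC, was at 0.13 in WR and -0.18 in RWR, with a technical SD of 0.15. Its sign followed the dye in both pairs, so it gives no clear direction against the sedentary pool. RWR minus WR was -0.25 and -0.36 in the dye orientations, opposite in sign to Prkcd. The mean was 1.46 technical SDs of the difference. The part of choroid plexus or thalamic tissue in the Prkcd result was not tested. The hippocampal markers were present: 6 of 6 neuronal markers with a probe were detected, and lay between -0.07 and 0.10 in WR and between -0.09 and 0.17 in RWR. The 4 interneuron markers lay between -0.03 and 0.14 over both comparisons, and the 4 oligodendrocyte markers between -0.08 and -0.06 in WR and between -0.24 and -0.07 in RWR. In tissue pools, fewer cells of a type and less RNA per cell cannot be told apart.

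The region upstream of Prkcd is printed because this member had the largest difference between running modes in units of its technical SD. The stretch is the 120 bases before the RefSeq start on the GRCr8 build, chr16:5805840-5805959, minus strand, and capitals mark the GC box GGGCGG, searched on both strands, of which it holds 5 copies.
Prkcd: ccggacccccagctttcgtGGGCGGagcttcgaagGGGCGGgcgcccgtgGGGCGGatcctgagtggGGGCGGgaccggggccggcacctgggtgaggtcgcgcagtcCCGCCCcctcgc
The GC box occurred in 30 of 42 promoter windows of members (300 bases each, 250 before and 50 after the start), 71.4%, against 33.1% of all windows and 60.2% of those of detected genes.

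Prkce, an isoform that needs no calcium, was above 0 in both comparisons. Its log2 ratio was 0.34 with WR in Cy5, -0.07 with WR in Cy3, 0.32 with RWR in Cy5 and 0.07 with RWR in Cy3. The RWR chips were both above 0, while the WR chips lay on either side. The pair mean was 0.14 in WR and 0.20, or 1.14-fold, in RWR, with a technical SD of 0.03. A second probe gave 0.13 and 0.18, but the dimmest of its 3 probes 0.04 and -0.02, so the higher value was not seen on all probes. RWR minus WR was 0.06 for the brightest probe, with -0.03 and 0.14 in the dye orientations, so no difference between running modes was seen beyond the dye orientations. Prkcb, the calcium-dependent beta isoform, was at 0.03 and 0.04, and the atypical Prkcz at -0.06 and -0.09. A second Prkcz probe was well above background in 3 of 8 measurements, with p-values of 0.00646 and 0.00265 on the chips with the running pool in Cy3, and its sign followed the dye in both pairs.

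In the PI3K, AKT and mTOR route all 8 members were detected, with a median of 0.04 in WR and -0.09 in RWR. In RWR 6 of 8 were below 0, as were 3021 of all 5925 detected genes. Akt2, the AKT isoform known for its role in insulin signalling, had the largest difference between running modes in size. Its log2 ratio was 0.38 with WR in Cy5, 0.06 with WR in Cy3, -0.11 with RWR in Cy5 and -0.23 with RWR in Cy3. Both WR chips were above 0 and both RWR chips below, the reverse of Prkcd. Either form of this pattern was met by 4.59% of all detected genes.

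The Akt2 pair means were 0.22 in WR (1.17-fold) and -0.17 in RWR (0.89-fold), with a technical SD of 0.15 at its low signal, and RWR minus WR was -0.39, with -0.49 and -0.29 in the dye orientations. The WR pool was thus at 1.31-fold the RWR pool. This was 1.87 technical SDs of the difference at its low signal, and the probe has a single spot per chip. The difference was -0.24 after normexp background correction and -0.20 with no background correction, both within 1.2-fold, so the call rests on how the background is handled.

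Akt1 gave a smaller difference at a higher signal. Its log2 ratios were -0.05 and 0.10 on the WR chips and -0.22 and -0.02 on the RWR chips, lower with RWR than with WR in each dye. The pair means were 0.03 and -0.12 with a technical SD of 0.03, and RWR minus WR was -0.15, or 3.65 technical SDs, with -0.17 and -0.13 in the dye orientations. Differences of at least this size were seen in 11.8% of detected genes.

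Pdpk1, the kinase that phosphorylates AKT on its activation loop, lay above 0 on all 4 chips. Its log2 ratios were 0.15 and 0.09 in WR and 0.21 and 0.11 in RWR, which gave pair means of 0.12 (1.09-fold) and 0.16 (1.11-fold), with a technical SD of 0.03. RWR minus WR was 0.03, less than its SD of 0.04. Rps6kb1, the S6 kinase downstream of mTOR, was below 0 on all chips, with means of -0.07 and -0.06.

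The regulatory PI3K subunit Pik3r1 was at -0.10 in WR and -0.17 in RWR, with a technical SD of 0.12 at its low signal, and its RWR value was 0.00 after normexp correction. Gsk3a, a kinase that AKT inhibits, was at 0.04 and -0.11, and its difference between running modes changed from -0.15 to 0.09 after normexp correction. Gsk3b, its close relative, was at 0.05 and 0.07, and Mtor at 0.05 and -0.01.

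Of the CaM kinases, 7 of 8 were detected, 6 of 7 above 0 in WR and 4 of 7 in RWR. Of all 5925 detected genes, 2974 and 2904 were. Camk2b, the beta chain of CaM kinase II, which binds actin in spines, was at 0.12 and 0.20 on the WR chips and at -0.03 and 0.18 on the RWR chips. Its pair means were 0.16 (1.12-fold) and 0.07 (1.05-fold), with a technical SD of 0.03. A second probe gave 0.09 in both comparisons, so the lower value in RWR was not seen there.

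Camk4, a mainly nuclear kinase that phosphorylates CREB, was at 0.02 and 0.29 on the WR chips and at -0.07 and 0.23 on the RWR chips. Its means were 0.15 and 0.08, with a technical SD of 0.04. The alpha chain Camk2a, the most studied kinase of synaptic potentiation, was at 0.01 and -0.03, with chips at -0.23 and 0.24 in WR and -0.29 and 0.24 in RWR. For this gene the sign followed the dye on every chip.

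Camkk1, which activates Camk1, Camk4 and AKT, was lower in RWR than in WR in both dye orientations, by -0.20 and -0.06, with a mean difference of -0.13 or 3.51 technical SDs. Its pair means were 0.03 and -0.10. The other upstream kinase, Camkk2, was at 0.06 in both comparisons, Camk2g at 0.06 in both, and Camk1 at -0.02 and -0.08.

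The phosphatase genes, with the inhibitor Ppp1r1b among them, lay above 0 in both comparisons in 5 of 5 cases. The medians were 0.10 in WR and 0.03 in RWR, and RWR minus WR was below 0 in 5 of 5. Of all 5925 detected genes, 2974 lay above 0 in WR, 2904 in RWR, and 3018 below 0 in RWR minus WR. In RWR Ppp3r1, Ppp1ca and Ppp1r1b lay within 1 technical SD of 0, so their signs there say little. A trend of the family was not tested. Ppp3ca, the catalytic alpha subunit of calcineurin, was at 0.16 and 0.10 on the WR chips and 0.18 and -0.00 on the RWR chips, with means of 0.13 and 0.09 and a technical SD of 0.03. Ppp3r1, the calcium-binding calcineurin subunit, was at 0.10 and 0.01, but its dimmer probe was at -0.09 and -0.12, so its direction depends on the probe. Ppp3cb was at 0.06 and 0.05, Ppp1ca at 0.02 and 0.01, and Ppp1r1b, the PKA-regulated inhibitor DARPP-32, at 0.11 and 0.03 with a technical SD of 0.12.

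The 6 detected MAPK members had a median of 0.01 in WR and 0.00 in RWR and lay between -0.11 and 0.11. Mapk3, which encodes ERK1, had the lowest pair means, with log2 ratios of 0.03 and -0.23 on the WR chips and -0.05 and -0.17 on the RWR chips, with means of -0.10 and -0.11 and a technical SD of 0.05. Mapk14, which encodes p38 alpha, was at 0.11 in WR and 0.03 in RWR, while its dim second probe gave -0.13 and 0.05. The MEK genes Map2k1 and Map2k2 were at 0.07 and 0.01 in WR and at 0.00 and 0.02 in RWR. On their brightest probes the JNK genes Mapk9 and Mapk10 lay within 0.05 of 0 in both comparisons.

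Of the PKA genes only the catalytic beta subunit Prkacb and the regulatory subunit Prkar1a were detected, at -0.05 and -0.00 in WR and at -0.07 and 0.01 in RWR. A second probe of Prkacb gave -0.08 and -0.13. A second probe of Prkar1a gave -0.00 in WR but -0.11 in RWR, 3.90 technical SDs, so its value in RWR depends on the probe. Among the membrane-proximal genes, the Src family kinase Fyn showed the widest split by dye. Its chips were at 0.44 and -0.22 in WR and at 0.29 and -0.10 in RWR, with means of 0.11 and 0.09, and a second probe gave 0.07 and 0.10. Src was at -0.02 and 0.03, the phospholipase Plcg1 at 0.06 and 0.01, and the small GTPase Rac1 at 0.01 and -0.03.

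The transcription factors at the end of these routes lay slightly below 0 in 3 of 3 cases in both comparisons, all by less than 2 technical SDs. Creb1 was measured at 10 spots of a dim probe, with log2 ratios of -0.43 and 0.34 on the WR chips and -0.43 and 0.26 on the RWR chips. The sign followed the dye, and the means were -0.05 and -0.08 with a technical SD of 0.15. A second dim probe gave -0.19 and -0.06. After normexp correction the WR mean was 0.06, so its sign depends on the background step. A change would have to pass 3 of these SDs to be counted by the rule above. The values thus give no direction for Creb1. The paper reports a higher CREB mRNA level with RWR by quantitative RT-PCR. Its text gives no fold for CREB, so the size of that change was not set against these dim probes. Crem, whose products include activators and the repressor ICER, was at -0.06 and -0.05, and Atf2 at -0.05 in both.

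CREB and CREM bind the cyclic AMP response element, CRE, TGACGTCA, which reads the same on both strands. It was found in RefSeq promoter windows of Crem and Mapk10, 2 of the 39 members with a window. It stood in 3 of the 42 windows of members, 7.14%, against 1.83% of all 33469 windows and 3.18% of those of detected genes. These stretches are shown because they carry the element that the factors of this list bind. Capitals mark the CRE, and in Creb1 its shorter form TGACG, which is also part of the full element. Crem has 3 windows, of which 2 hold a CRE, at chr17:58984715-58984774 and chr17:58985429-58985488, and the others are chr14:6802190-6802249 and chr9:73397423-73397482, all on the plus strand of GRCr8.
Crem, upstream window: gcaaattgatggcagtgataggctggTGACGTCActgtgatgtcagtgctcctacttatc
Crem, downstream window: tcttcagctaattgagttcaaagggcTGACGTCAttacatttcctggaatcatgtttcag
Mapk10: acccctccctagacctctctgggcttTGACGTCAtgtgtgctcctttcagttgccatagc
Creb1: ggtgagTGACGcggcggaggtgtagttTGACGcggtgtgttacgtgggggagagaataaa
The CRE began 56 and 35 bases before the start in the Crem windows and 78 bases before it in Mapk10. The log2 ratios of Crem are given above, and Mapk10 was at 0.02 in WR and -0.05 in RWR.

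The short form, on either strand, was found in windows of 15 of 39 members. It stood in 40.5% of members' windows, 21.2% of all windows and 32.1% of those of detected genes. The 12 detected members with it had a median log2 ratio of 0.01 in WR, between -0.06 and 0.10, and of -0.05 in RWR, between -0.11 and 0.05. The 21 without it had medians of 0.05 and 0.03 and wider ranges, from -0.13 to 0.22 and from -0.17 to 0.24. These are descriptions of letters in a window and not of binding.

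The running modes were also compared over the whole list. Of all 41 members 4 passed 1.2-fold between RWR and WR, against 21.4% of all named genes, and Camk2d and Prkar2a were among them. Of the detected members 2 did, Prkcd up and Akt2 down, which is 5.13% of 39, against 2.95% of detected genes. Past 3 technical SDs lay Prkcd, Akt1 and Camkk1, 7.69% of the detected members against 4.56% of detected genes. The median difference of the detected members was -0.03, with a median of -0.00 over all detected genes. Below 0 lay 27 of 39 detected members and 3018 of all 5925 detected genes. Over all 41 members the median was also -0.03, with an SD of 0.03 between the dye orientations. Besides Akt2, Gsk3a, Akt1 and Camkk1, the detected members lay between -0.09 and 0.06, apart from Prkcd.

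**Figure D4:**
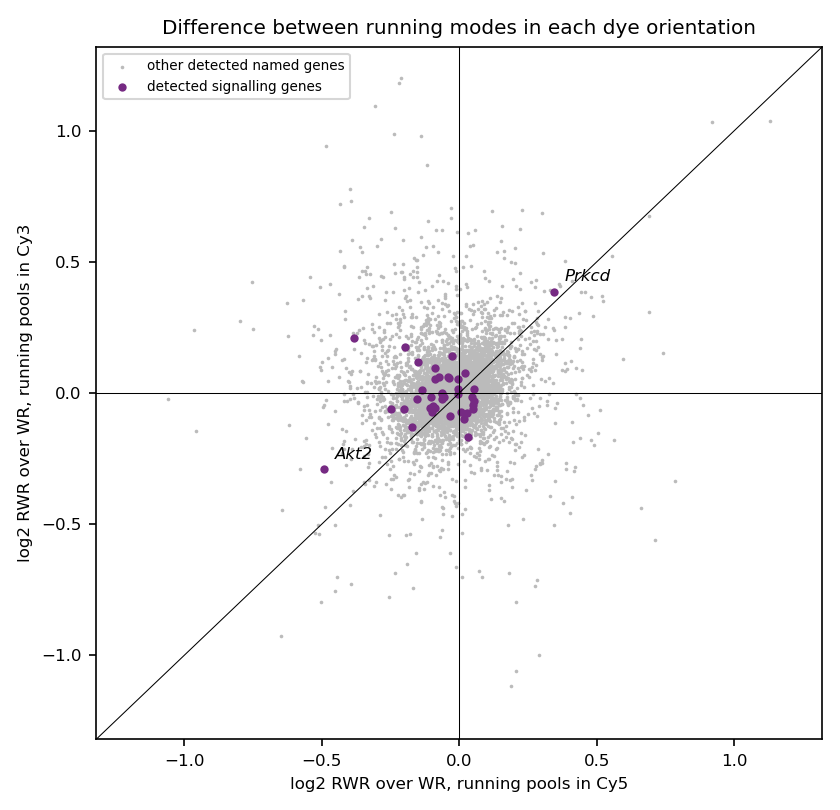
Log2 ratio of RWR over WR with both running pools in Cy5 (horizontal axis) and in Cy3 (vertical axis), for the 39 detected signalling genes (coloured) and the other detected named genes (grey). Prkcd lies at 0.34 and 0.39 and Akt2 at -0.49 and -0.29, each with the same sign in both orientations (the diagonal marks equal values), while most signalling genes lie near the origin.

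A wider list of 92 genes of the same routes, such as adenylate cyclases, calmodulins, anchoring proteins and phosphatase subunits, had 67 genes with a named probe and 62 detected. Of the 62, 0 passed 1.2-fold in WR or RWR. Between running modes 2 did, the dim CaM kinase II inhibitor Camk2n2 at -0.26 and the dim Prkch at -0.31. This is 3.23% of the 62 and close to the 2.95% of all detected genes. In the dye orientations Camk2n2 was at -0.57 and 0.05, so its sign differed, and Prkch at -0.25 and -0.36. The means were 1.54 and 1.46 technical SDs of the difference. Past 3 technical SDs lay 12 in WR, 9 of them above 0, and 8 in RWR, 6 of them above 0. These were 19.4% and 12.9% of the 62, against 8.88% and 11.1% of all detected genes. Between running modes 5 did, 8.06% against 4.56%. Ppp1r1a, an inhibitor of protein phosphatase 1 that PKA activates, was past it in both comparisons, with 0.18 and 0.24 on the WR chips and 0.07 and 0.11 on the RWR chips. Akap5, which anchors PKA and calcineurin at synapses, was at 0.02 in WR and 0.14 in RWR. Camk2n1, an inhibitor of CaM kinase II, was at -0.04 in WR and -0.19 in RWR.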

How the data were processed

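Hippocampal RNA pools of sedentary, WR and RWR rats were measured on 4 chips of a rat oligo array in 2 colours. The authors processed the scans with Agilent Feature Extraction 11.0.1.1, with background subtraction and LOWESS dye normalization. The deposited log10 ratio is Cy5 over Cy3, and the p-value the authors deposited comes from the error model of a single chip. The deposited processed signal and median signal are intensity values of a spot in each dye. Groups and dyes were taken from the labels.

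Control and outlier spots were left out. Each ratio was given the sign of running over sedentary, changed to log2 and averaged over the spots of its probe. Accessions were matched without version to RefSeq names of GRCr8, and the array itself was designed on rn4. A gene was represented by its brightest probe. Detected means well above background in 8 of 8 measurements (2 dyes, 4 chips), for repeated probes at most spots. No test between conditions was made, since each group was 1 pool. The technical SD is the root mean square of the difference of the dye terms of both pairs among detected genes in 10 bins of signal, divided by the square root of 2 for a pair mean.

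Named were Creb1, the 4 highest and 4 lowest detected members of each comparison, members past 1.2-fold, members not well above background and genes whose probes differed by over 0.5, and the others by family. The members and lists were chosen with earlier results of these data known.

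The alternatives were normexp correction (offset 50) and no background correction, each with loess in limma 3.58.1 under R 4.3.3, median centring, the median over the probes of a gene, the ratio of processed signals, the series matrix values, the detected members alone, other cutoffs and each chip left out. Both background alternatives started from the median signal and not, as first planned, from the mean signal. The deposited series matrix gives processed Cy5 over Cy3 as log10, not turned for the dye swap. The selection was also run on simulated data, but no outcome is given here and no result rests on that run. How well it finds small changes is thus not shown. Python 3.11.15, numpy 2.4.6 and pandas 2.3.3 were used. On each chip 67.5% to 82.5% of noncontrol spots were well above background in a dye. The number of chips limits the precision.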

Additional observations from a re-analysis of the deposited data

Results flagged for a closer look

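Prkcd and Akt2 were picked out because every chip of one running mode lay on one side of 0 and every chip of the other running mode on the other side. The log2 difference of RWR over WR was 0.37 for Prkcd and -0.39 for Akt2. The difference was not tested, as each group was 1 pool. The same pattern was met by 5.13% of detected members and by 4.59% of all detected genes, so its frequency among the members was close to that of all genes. In size, 1.01% of detected genes differed at least as much as Prkcd and 0.793% at least as much as Akt2. These shares are over genes of all signals, and dim genes spread more widely. At like signal the difference was 6.56 technical SDs for Prkcd but 1.87 for the dim Akt2, whose size depends on the background step.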

How the results depend on the processing

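The counts by the study's cutoffs, as read here, stayed at 0 under the settings run, with 1 exception. With no p-value filter 1 member, Camk2d, not well above background, was called in RWR. The counts past 1.2-fold in WR, RWR and RWR over WR, 1, 2 and 4 of 41, became 0, 0 and 2 with normexp, 0, 0 and 1 with no background correction and 0, 0 and 2 with detected members alone. They became 0, 1 and 2 at 1.3-fold, and 4 in WR and 7 in RWR at 1.1-fold. The cause was not tested. With a chip left out, the dye term no longer cancels: the WR count ranged from 5 to 9 with a median log2 ratio from -0.0086 to 0.017, the RWR count from 3 to 7 with a median from -0.032 to 0.015, and the difference had 4 members past 1.2-fold in either dye orientation, with a median from -0.06 to -0.01, Ppp1r1b in place of Prkar2a in the Cy5 orientation. Prkcd stayed between 0.32 and 0.37 in RWR over WR under the other settings and between 0.34 and 0.39 with a chip left out, and Akt2 between -0.39 and -0.20 and between -0.49 and -0.29. Of 306 values of named members under those other settings, 287 moved by less than their technical SD and 19 by more. The ratio of processed signals and the series matrix repeat the main values almost by construction, and median centring shifts them little. For genes with 1 probe the median over probes changes nothing. Most of the 19 came from the background alternatives, so the count of 287 overstates how stable the values are. Values of dim probes depend on the background step. No paired analysis was possible because the replicate numbers are the dye orientations of the same pools.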
